A study of Mus musculus with 2 samples.

Results

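The D-type cyclins, their kinase partners and the inhibitors of those kinases were followed through the cells of a mouse tumour. The set held 10 genes of the 32285 listed in each count matrix: Ccnd1, Ccnd2, Ccnd3, Cdk4, Cdk6, Cdkn1a, Cdkn1b, Cdkn2a, Cdkn2b and Cdkn2c. They were matched by symbol, and they were selected on their function and on measured values of these same libraries, namely their levels by class and the PKCi to control ratio of Ccnd2, so both are given as a description. The tumours were subcutaneous and arose in C57BL/6 mice injected with CMT167R, an anti-PD1-resistant line derived from the mouse lung carcinoma line CMT167, with the genotype label WT. In the control group the mice received solvent, and in the PKCi group they received PKCi at 3 mg/kg by daily intraperitoneal injection (the labels do not name the compound, and the series title names PKC signalling). Tumours were taken when those of the control group had grown to 400 mm3. Both groups received the same resistant cells, and no sensitive parental tumour was among the samples used here. Each treatment was 1 single-cell library, and the number of mice behind each library is not given in the sources used here, so no test between treatments was possible. Square brackets give 95% intervals for counting error alone.

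D-type cyclins are made in response to growth signals. They bind CDK4 or CDK6, and the active pair phosphorylates the retinoblastoma protein, which releases E2F factors that switch on genes for DNA replication. Inhibitors of the CIP/KIP family (p21 from Cdkn1a, p27 from Cdkn1b) act on several cyclin-CDK pairs, whereas INK4 inhibitors (p16 from Cdkn2a, p15 from Cdkn2b, p18 from Cdkn2c) bind CDK4 and CDK6 and keep cyclin D off them. Cdkn2a also encodes ARF, which acts on the p53 pathway through MDM2, and loss of this locus is common in tumours and cultured lines.

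After filtering, 6269 control and 7078 PKCi cells were kept, with medians of 32992 and 29550.5 unique molecular identifiers (UMIs, each standing for 1 captured transcript) per cell, and 20 barcodes occurred in both libraries. Levels are UMIs per 1000000 UMIs of a class of cells (CPM). These are counts from transcript 3′ ends that are not divided by length, so levels are compared between classes for 1 gene and never between genes. The main population, 4838 control and 5302 PKCi cells, is called by its size rather than as carcinoma: it held Krt8 at 381 and 483 CPM and Vim at 2793 and 2696 CPM, but 1 UMI of Epcam in each library, and 2 of 6 epithelial markers reached 50 CPM. Monocyte-like (571 and 489 cells), macrophage-like (163 and 503), neutrophil-like (294 and 189), together with fibroblast-like, endothelial-like, dendritic-like, NK-like and T-like cells, were named from marker lists, and the last 5 of these classes held fewer than 100 cells in at least 1 library. Krt8, high in the main population, was also counted in the others, and whether through free RNA, doublets or misplaced cells was not tested. It stood at 7.02% and 6.98% of its main-population level in monocyte-like cells and at 8.44% and 8.85% in macrophage-like cells. In neutrophil-like cells it was at 31.8% and 58.4%, and in endothelial-like cells at 8.49% and 26.7%. Endothelial-like cells also held pericyte markers, summed to 919 and 902 CPM, with 5 and 6 of 7 at or above 50.

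The 3 D-type cyclins each had their own distribution over the 9 classes. Ccnd1 encodes the cyclin most often linked to growth factor signals in epithelial and mesenchymal cells and lies at chr7:144929931-144939925 on the minus strand (GRCm38). In control cells its level was 224 CPM [222, 226] in the main population, 224 in endothelial-like, 194 in dendritic-like and 175 [161, 190] in macrophage-like cells. It was lower in neutrophil-like cells (61.2 CPM), monocyte-like cells (30.7 [26.2, 35.7]), T-like cells (24.4), fibroblast-like cells (20.8) and NK-like cells (20.3). Within the first 4 of these classes, and within the last 4, each interval overlapped that of the next class, and neutrophil-like cells lay apart from both sides. When the main population's profile was subtracted in proportion to Krt8, control Ccnd1 was 0 CPM in neutrophil-like, T-like, NK-like and fibroblast-like cells, 16.1 in monocyte-like and 171 in macrophage-like cells, so the low levels of the first 4 were no higher than this background. In the PKCi library the order began with endothelial-like cells (270 CPM) and the main population (266 [263, 268]) and ended with NK-like (32.8) and T-like cells (20.3).

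Ccnd2 encodes the D cyclin with a prominent part in lymphocytes and lies at chr6:127125162-127152193 on the minus strand. Its control levels were highest in dendritic-like cells (396 CPM) and T-like cells (384), whose intervals overlapped, and next in NK-like cells (250) and fibroblast-like cells (208). The main population held 168 CPM [166, 170], and neutrophil-like (54.6), endothelial-like (53.1), monocyte-like (41.1 [35.9, 47.0]) and macrophage-like cells (30.6 [24.9, 37.3]) were lowest. The 2 monocyte and macrophage classes were therefore at the bottom of the control order. In the PKCi library monocyte-like cells ranked below only dendritic-like and T-like cells at 255 CPM [239, 271], above the main population at 216 [214, 218], and macrophage-like cells stood at 189 [179, 200]. Those were at 344 and 286, and endothelial-like cells (98.3) were last.

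Ccnd3, the D cyclin typical of differentiated and lymphoid cells, lies at chr17:47505051-47599691 on the plus strand and spanned a narrower range. The main population held 70.7 and 70.2 CPM in control and PKCi. Control levels ran from 47.6 CPM in macrophage-like to 163 in dendritic-like cells, with T-like cells at 126 [95.7, 164] and NK-like cells at 122, and every class overlapped the next one in the order. In the PKCi library T-like cells were highest at 208 CPM [174, 247], and macrophage-like cells were again lowest at 40.5. Genes on the opposite strand overlap Ccnd1 (LTO1), Ccnd2 (Gm43126 and 9330179D12Rik) and Ccnd3 (Bysl). Whether the counting used strand is not given in the sources used here, so reads from such pairs may not be separated.

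**Figure D1:**
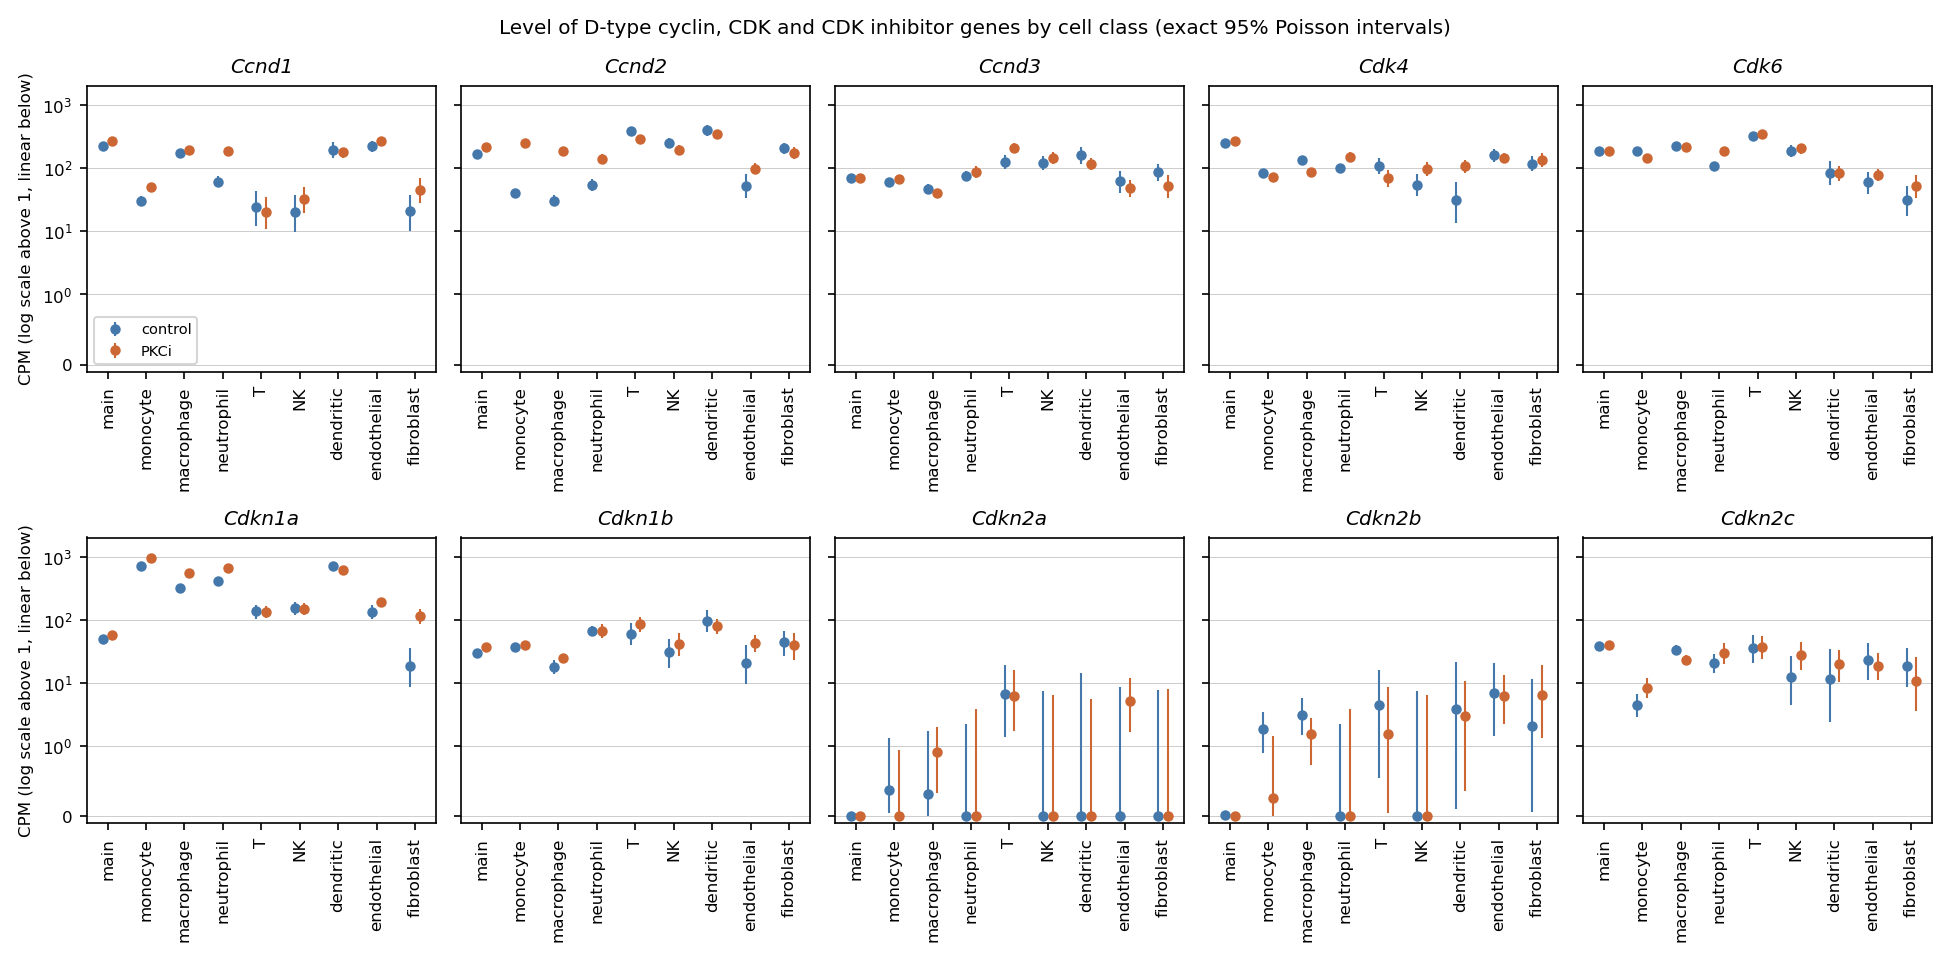
Levels of the 10 genes in 9 classes of cells. The y axis is CPM, on a log scale above 1 and linear below, points are the control and PKCi libraries, and bars are exact Poisson 95% intervals that cover counting error only. Ccnd2 in monocyte-like and macrophage-like cells differs most between the libraries, Cdkn1a is lower in the main population than in most other classes, and Cdkn2a and Cdkn2b are at or near 0 in the main population.

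Among the kinases, Cdk4 was the member that set the main population above every other class. Cdk4, a catalytic partner of D cyclins, lies at chr10:127063534-127067920 on the plus strand, where Tspan31 overlaps it on the other strand. Its level in the main population was 248 CPM in control and 269 in PKCi. The next class was at 162 (endothelial-like, control) and 152 (neutrophil-like, PKCi), apart from it by their intervals. After subtraction in proportion to Krt8, as for Ccnd1, Cdk4 in PKCi neutrophil-like cells was 0 CPM. That level of 152 was thus no higher than this background. Over both libraries the 8 other named classes together held 97.0 CPM against 259 in the main population, a ratio of 0.375 [0.361, 0.390]. The bases before its start are shown because they hold 4 copies of the E-box that MYC and related factors bind, written CACGTG and in capitals with the GC box (GGGCGG on either strand). They were taken from the RefSeq promoter table (GRCm38.p6), plus strand, chr10:127063285-127063533.
Cdk4: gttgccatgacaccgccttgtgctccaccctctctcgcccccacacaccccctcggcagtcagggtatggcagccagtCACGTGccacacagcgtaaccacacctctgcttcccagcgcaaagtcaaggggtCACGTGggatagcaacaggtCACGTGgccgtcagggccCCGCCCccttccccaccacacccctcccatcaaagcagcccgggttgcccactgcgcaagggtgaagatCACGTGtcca
Among 32851 promoter windows of 250 bases, 6.02% held at least 1 CACGTG, 0.0213% (7 windows) held 4 or more, and 32.7% held a GC box. A match is a stretch of letters and not a measured binding site. Myc itself, a growth-signal factor, stood at 507 and 606 CPM in main-population cells, above every other named class. Those ran from 51.4 CPM in the monocyte-like class to 164 in the neutrophil-like class in control, and from 64.6 in the monocyte-like to 397 in the fibroblast-like class in PKCi.

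Cdk6, the other catalytic partner, lies at chr5:3341485-3531008 on the plus strand, where Gm17590 and Gm42435 overlap it on the other strand. T-like cells were highest in both libraries, at 319 CPM in control and 348 in PKCi. Macrophage-like cells followed at 227 and 214, and the main population held 184 and 188. The other classes together held 0.963 times the main-population level of Cdk6, against 0.375 times for Cdk4. Fibroblast-like cells were lowest, at 31.1 and 52.1 CPM.

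Among the inhibitors, Cdkn1a was lower in the main population than in every other class except fibroblast-like cells of the control library (18.7 CPM). Cdkn1a encodes p21, a target of p53 that stops cyclin-CDK pairs, and lies at chr17:29090976-29100727 on the plus strand. Its level was 49.8 CPM in the control main population and 56.9 in the PKCi one. It was 700 and 949 in monocyte-like cells, 714 and 617 in dendritic-like cells, 312 and 547 in macrophage-like cells and 406 and 667 in neutrophil-like cells. The lymphoid and endothelial-like classes lay between, at 135 and 135 in T-like, 152 and 147 in NK-like and 134 and 188 in endothelial-like cells. Over both libraries the other 8 classes held 537 CPM against 53.4 in the main population, a ratio of 10.1 [9.85, 10.3]. The bases upstream of the first of its 2 RefSeq starts are shown because they hold a close match to the paired decamer of p53, in capitals. The match begins 51 bases before that start and differs from the motif at 1 position. The last 3 of the upstream bases lie in a GENCODE exon and are not printed (RefSeq table, GRCm38.p6, plus strand, chr17:29090729-29090975).
Cdkn1a: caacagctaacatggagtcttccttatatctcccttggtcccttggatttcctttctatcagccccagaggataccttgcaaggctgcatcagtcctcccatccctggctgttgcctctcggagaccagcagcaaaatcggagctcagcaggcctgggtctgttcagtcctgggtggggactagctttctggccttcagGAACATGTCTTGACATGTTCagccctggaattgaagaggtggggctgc
A match with at most 1 mismatch was in 25 of the 32851 windows, or 0.0761%, and the window before the second Cdkn1a start held none. Mdm2, another p53 target and the ligase that degrades p53, was at 60.9 and 55.6 CPM in the main population, below monocyte-like cells, at 178 and 116, and macrophage-like cells, at 162 and 160. It was at 58.9 and 41.4 in NK-like, 41.6 and 57.3 in endothelial-like and 51.9 and 54.3 in fibroblast-like cells, so it did not follow Cdkn1a in every class.

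Cdkn1b, which encodes p27, lies at chr6:134920401-134925513 on the plus strand and varied less. It stood at 29.7 and 36.4 CPM in the main population, 17.9 and 24.3 in macrophage-like cells and 36.7 and 39.1 in monocyte-like ones. Dendritic-like cells (97.0 and 78.1), neutrophil-like cells (66.7 and 66.0) and T-like cells (59.9 and 86.1) were higher. The other classes together were at 1.15 times the main population. Rb1, the retinoblastoma gene downstream of these kinases, was at 12.2 CPM in the main population and 48.5 in the other classes, a ratio of 3.99.

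No UMI of Cdkn2a was counted in the main population of either library, among 200511567 control and 204008613 PKCi UMIs. A count of 0 allows up to 0.0150 and 0.0147 CPM per library and 0.00742 CPM over both, taking 3 counts as the limit. The other named classes held 21 UMIs, or 0.775 CPM, and the 95% interval of the ratio to the main population has a lower limit of 77.7. These were 3 and 4 UMIs in T-like cells (6.65 and 6.26 CPM), 0 and 5 in endothelial-like cells, 1 and 6 in macrophage-like cells and 2 and 0 in monocyte-like cells. Cdkn2a lies at chr4:89274471-89294653 on the minus strand, and 3′ counts do not separate its p16 and ARF transcripts. Cdkn2b, at chr4:89306299-89311039 on the same strand, had 4 and 1 UMIs in the main population and 50 UMIs, or 1.84 CPM, in the other classes, a ratio of 149 [59.9, 479]. With counts this low in every class, neither gene can be compared between treatments.

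The upstream bases of both Cdkn2a starts and of Cdkn2b are shown because these genes were at or near 0 in the main population. All are minus strand from the RefSeq table (GRCm38.p6): chr4:89294654-89294869 and chr4:89282193-89282442 for the first and second Cdkn2a starts, and chr4:89311040-89311282 for Cdkn2b. Capitals mark a GC box in the first and the cyclic AMP response element TGACGTCA, held by 1.55% of windows, in the last.
Cdkn2a start 1: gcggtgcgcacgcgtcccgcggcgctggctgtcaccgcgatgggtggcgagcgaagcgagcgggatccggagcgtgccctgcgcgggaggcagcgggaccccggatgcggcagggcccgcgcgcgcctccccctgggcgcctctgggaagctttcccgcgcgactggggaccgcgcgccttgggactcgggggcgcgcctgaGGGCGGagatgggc
Cdkn2a start 2: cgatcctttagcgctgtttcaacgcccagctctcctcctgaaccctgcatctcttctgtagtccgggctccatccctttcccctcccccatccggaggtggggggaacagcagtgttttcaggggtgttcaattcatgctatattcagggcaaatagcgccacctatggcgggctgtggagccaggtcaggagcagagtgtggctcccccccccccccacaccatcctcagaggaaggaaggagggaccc
Cdkn2b: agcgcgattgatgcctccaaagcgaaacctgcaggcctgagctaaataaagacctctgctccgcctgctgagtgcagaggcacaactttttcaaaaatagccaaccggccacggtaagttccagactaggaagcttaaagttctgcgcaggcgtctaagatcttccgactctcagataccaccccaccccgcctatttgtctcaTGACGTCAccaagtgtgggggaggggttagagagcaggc
The second Cdkn2a window held none of the motifs searched on either strand. Besides the 3 spelled out so far these were the AP-1 motif TGANTCA, in 6.75% of windows, and the TATA box TATAAA, in 12.4%. An E2F motif was searched as TTTGGCGC, in 0.417% of windows, and as TTTCGCGC, in 0.256%. Neither spelling of it was in any of the 12 windows of the 8 members found in the table, and no entry was found for Ccnd1 or Ccnd2. Other spellings of the E2F motif were not searched, so these windows, those of Cdkn2a included, may hold them. Shares count windows of 250 bases, of which only the bases outside annotated exons are printed.

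Genes around Cdkn2a on chromosome 4 were counted in the main population, which gives the levels at either side. Of 40 listed protein-coding genes within 1000 kb, Cdkn2a itself included, 32 were interferon or unnamed predicted genes with 170 UMIs in all. Mtap, 93.4 kb from Cdkn2a and active in purine salvage, had 50556 UMIs, or 128 CPM in control and 122 in PKCi, against 32.5 CPM in the other classes. Klhl9 (552 kb), Focad (863 kb) and Hacd4 (836 kb) had 10318, 6890 and 998 UMIs. Dmrta1, 385 kb away beyond Cdkn2b, had 11 UMIs in the main population and 1 in the other classes, and Zfp352 had 1 in the main population. The 2 inhibitor genes were thus at 0 and 5 UMIs a short way from an abundant neighbour, and whether the DNA of the locus is present was not tested.

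**Figure D2:**
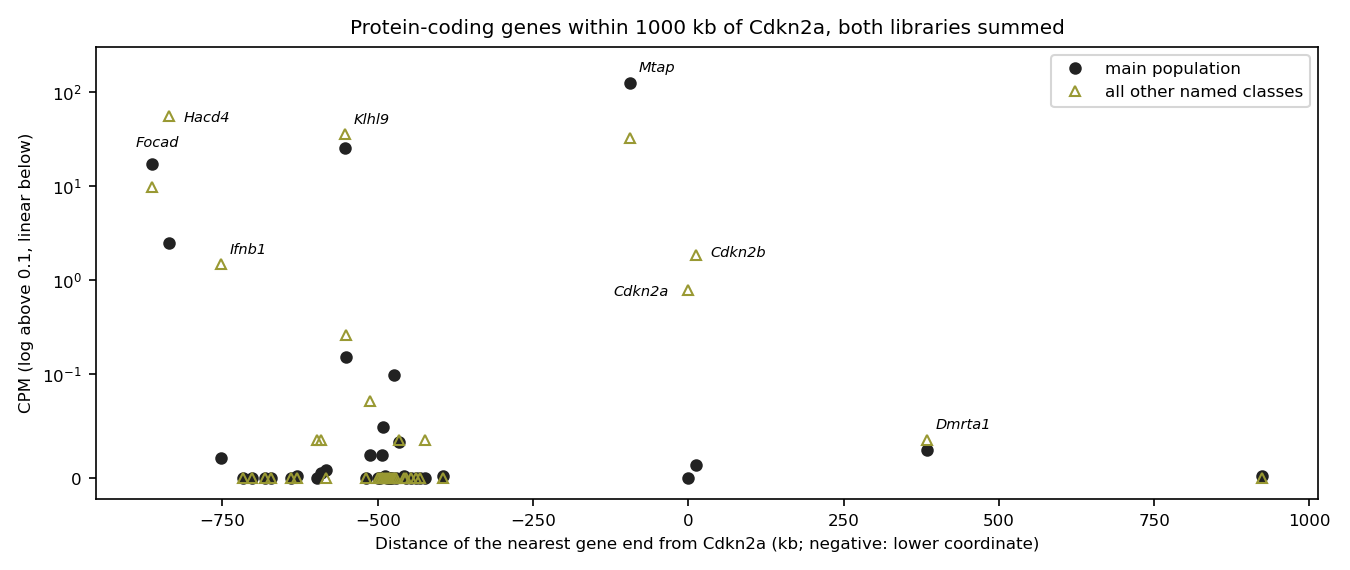
Protein-coding genes within 1000 kb of Cdkn2a, both libraries summed. The x axis is signed distance from Cdkn2a in kb, the y axis is CPM on a log scale above 0.1 and linear below, filled circles are the main population and open triangles the other named classes; in the main population Mtap, 93.4 kb away, is at 125 CPM and Cdkn2a at 0.

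Cdkn2c, the INK4 member that the main population did express, lies at chr4:109660876-109667189 on the minus strand, away from the pair above. It held 38.5 CPM in the control main population and 39.6 in the PKCi one, from 7723 and 8084 UMIs. Macrophage-like cells were at 33.1 and 23.1, T-like cells at 35.5 and 37.6, and monocyte-like cells were lowest at 4.49 and 8.43. The other classes together were at 0.470 times the main population, as was Ccnd1. Cdkn2d, the fourth INK4 gene and not a member, stood at 45.9 and 42.1 CPM in the main population.

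In the main population no member differed by 1.5 times between the treatments. A ratio was called when a gene had at least 50 UMIs over both libraries in a class and was at least 1.5 times higher or lower in PKCi, which 8 members could meet in each class compared and Cdkn2a and Cdkn2b could not. Here 0 of 8 members were called, against 8.27% of the 15704 genes measured, of which 3.38% were higher and 4.89% lower. Ccnd2 went from 168 to 216 CPM (1.28 [1.27, 1.30]), Ccnd1 from 224 to 266 (1.19 [1.17, 1.20]), Cdkn1b from 29.7 to 36.4 (1.23 [1.18, 1.27]) and Cdkn1a from 49.8 to 56.9 (1.14 [1.11, 1.17]). Cdk4 (1.08), Cdk6 (1.02), Ccnd3 (0.992) and Cdkn2c (1.03 [0.997, 1.06]) were nearer to 1, and the median log2 ratio of the 8 was 0.15 against -0.02 over all genes. In each of the 9 clusters into which the main population fell, Ccnd1, Ccnd2, Cdk4 and Cdkn1b were higher in PKCi cells, with ranges of 1.11 to 1.54 for Ccnd1 and 1.15 to 1.52 for Ccnd2. Cdkn1a was higher in 6 of the 9, Cdkn2c in 5 and Ccnd3 in 3. The clusters divide the same libraries and are not replicates, and how many of all genes were higher in all 9 was not counted.

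The largest difference in the set was that of Ccnd2 in monocyte-like and macrophage-like cells. In monocyte-like cells Ccnd2 had 220 UMIs in control and 997 in PKCi, levels of 41.1 and 255 CPM and a ratio of 6.19 [5.34, 7.20]. In macrophage-like cells it had 99 and 1244 UMIs, levels of 30.6 and 189 CPM and a ratio of 6.18 [5.04, 7.67]. These 2 ratios were among the highest of the genes measured there, with 8 of 8794 and 25 of 9589 genes at or above them, and the higher level in macrophage-like cells was known before the gene was chosen. Among cells thinned to 5000 UMIs, 10.0% [7.51, 12.97] of control and 49.0% [43.7, 54.3] of PKCi monocyte-like cells held a Ccnd2 UMI. The corresponding shares of macrophage-like cells were 16.8% [11.3, 23.6] and 44.3% [39.7, 49.0]. Thinning left out 71 and 134 monocyte-like and 8 and 45 macrophage-like cells that were shallower than this, and unthinned shares were 16.8% and 50.3%, and 31.9% and 64.4%. For comparison, thinned endothelial-like cells, the class with the lowest PKCi level, held Ccnd2 in 11.1% of 18 control and 22.9% of 35 PKCi cells. The median depths were 7833 and 6808 UMIs in monocyte-like cells and 18161 and 11984 in macrophage-like cells.

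The difference was spread over many macrophage-like cells and was not carried by a few. The 10 cells with the most Ccnd2 UMIs gave 43.4% of the control and 20.6% of the PKCi UMIs in macrophage-like cells, and 40.5% and 17.6% in monocyte-like cells. With each cell weighted equally the ratios were 5.19 in macrophage-like and 6.09 in monocyte-like cells. After the main population's Ccnd2 was subtracted in proportion to Krt8, the macrophage-like levels were 17.9 and 187 CPM and the monocyte-like levels 31.6 and 258. The ratios became 10.4 and 8.16, and the PKCi levels were little changed.

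The monocyte-like ratio moved with the make-up of the class, and the finer clusters could not show this for the macrophage-like one. A finer clustering divided most monocyte-like cells among 3 clusters, and the libraries filled them differently. The first, with Ly6c2 (a monocyte marker) at 680 and 649 CPM, held 215 control and 98 PKCi cells, and its Ccnd2 was 31.3 and 44.1 CPM, a ratio of 1.41 [0.808, 2.38]. The second, with Ly6c2 at 60.7 and 184 CPM, held 246 and 65 cells, and Ccnd2 was 14.9 and 81.2 CPM (5.45 [3.26, 9.04]). Plac8, another monocyte marker, was at 158 and 747 CPM in this cluster, so its cells differed in these markers between the libraries. The third, with Ly6c2 at 17.8 and 8.35 CPM and C1qa (a macrophage marker) at 562 and 207, held 103 and 318 cells, and Ccnd2 was 108 and 315 CPM (2.92 [2.44, 3.53]). Ccnd2 was thus highest where most PKCi cells lay, and with the clusters held at the control mix its monocyte-like levels were 41.2 and 125 CPM and the ratio 3.04. The finer macrophage-like cluster of 158 control and 482 PKCi cells had 31.2 and 187 CPM, a ratio of 6.00 [4.88, 7.44]. Nearly all of the 163 and 503 macrophage-like cells lay in it, so its ratio was bound to stay near that of the class. Within it C1qa was at 3305 and 2838 CPM and Ms4a7, another macrophage marker, at 353 and 103. When monocyte-like and macrophage-like cells were summed, Ccnd2 was 37.2 and 214 CPM, a ratio of 5.75 [5.11, 6.48]. Markers moved with these classes as well: summed macrophage markers in macrophage-like cells were 17718 and 13455 CPM, all 9 at or above 50 CPM in both, and summed monocyte markers in monocyte-like cells were 2552 and 1959 CPM, with 8 and 9 of 9 at or above 50. Macrophage markers summed to more than these in the same monocyte-like cells, at 3741 and 2375 CPM, with 9 and 7 of 9 at or above 50, so this class holds both kinds of marker. Their part in the Ccnd2 result was not tested beyond these finer clusters.

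**Figure D3:**
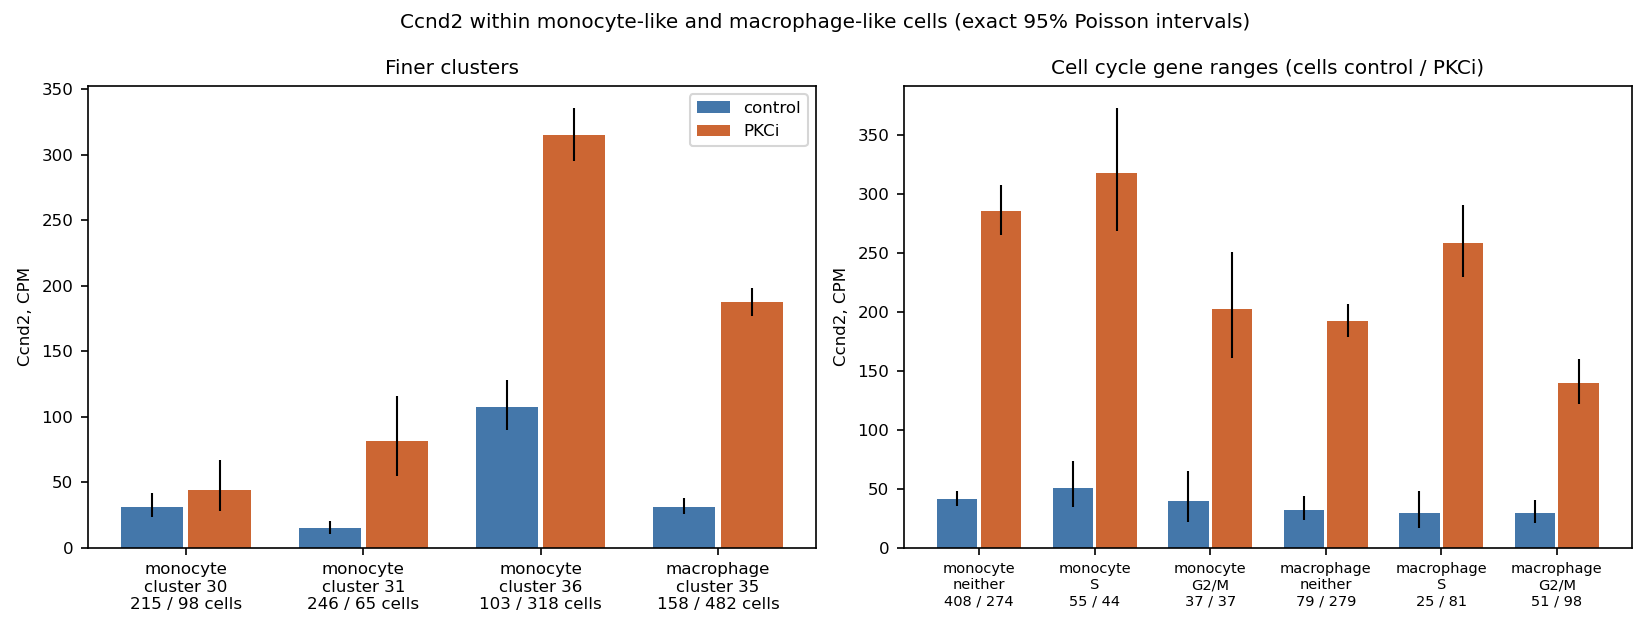
Ccnd2 within monocyte-like and macrophage-like cells, by finer cluster on the left and by range of cell cycle genes on the right (neither, S, G2/M). Bars are CPM from 0 in the control and PKCi libraries, lines are exact Poisson 95% intervals and the numbers of cells stand under the bars; the macrophage-like cluster goes from 31.2 to 187 CPM, while the monocyte-like cluster with the most Ly6c2 (cluster 30) goes from 31.3 to 44.1.

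Other members differed in these 2 classes by less. In monocyte-like cells 3 of 8 members were called higher (Ccnd1, Ccnd2 and Cdkn2c) and 0 lower. Of all 8794 genes measured there 18.2% were called, 11.7% higher and 6.53% lower. The Ccnd2 ratio was among the values used to select the set, so its call and its part in the median were not independent of the selection. Ccnd1 went from 30.7 to 50.8 CPM (1.66 [1.34, 2.05]) and Cdkn2c from 24 to 33 UMIs (1.88 [1.08, 3.32]). Held at the control mix of finer clusters, the Ccnd1 ratio was 1.14 and that of Cdkn2c 2.70. Cdkn1a was 700 and 949 CPM, 1.35 times higher [1.29, 1.42], and 1.19 at the control mix. Cdk6 went from 184 to 146 CPM (0.791 [0.712, 0.878]) and Cdk4 from 84.5 to 73.1 (0.864 [0.743, 1.00]). The median log2 ratio of the 8 was 0.30 against 0.14 over all genes.

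In macrophage-like cells 2 of 8 members were called higher (Ccnd2 and Cdkn1a) and 1 lower (Cdk4). Of all 9589 genes measured there 16.5% were called, 9.86% higher and 6.62% lower. The higher Ccnd2 of these cells was known before the set was chosen, so its call was fixed in advance. Cdkn1a had 1010 and 3593 UMIs, levels of 312 and 547 CPM and a ratio of 1.75 [1.63, 1.88]. A single control cell gave 143 of those UMIs (14.2%), and with each cell weighted equally the ratio was 1.57. Cdk4 had 429 and 562 UMIs, levels of 133 [120, 146] and 85.5 [78.6, 92.9] CPM and a ratio of 0.645 [0.567, 0.733]. In the finer macrophage-like cluster the Cdkn1a ratio was 1.78 and the Cdk4 ratio 0.640. The Cdk4 ratio no longer met the 1.5 times rule with cells weighted equally (0.689), without doublet removal (0.699), at clustering resolution 0.5 (0.840), with monocyte-like cells joined in (0.788) or with cells named from markers alone (1.00). Ccnd1 (1.13 [1.02, 1.25]), Ccnd3 (0.850), Cdk6 (0.946), Cdkn1b (1.36 [0.999, 1.87]) and Cdkn2c (0.699 [0.542, 0.904]) were within 1.5 times. Over the 8 members the median log2 ratio was 0.04 and over all genes 0.01, with members on both sides.

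**Figure D4:**
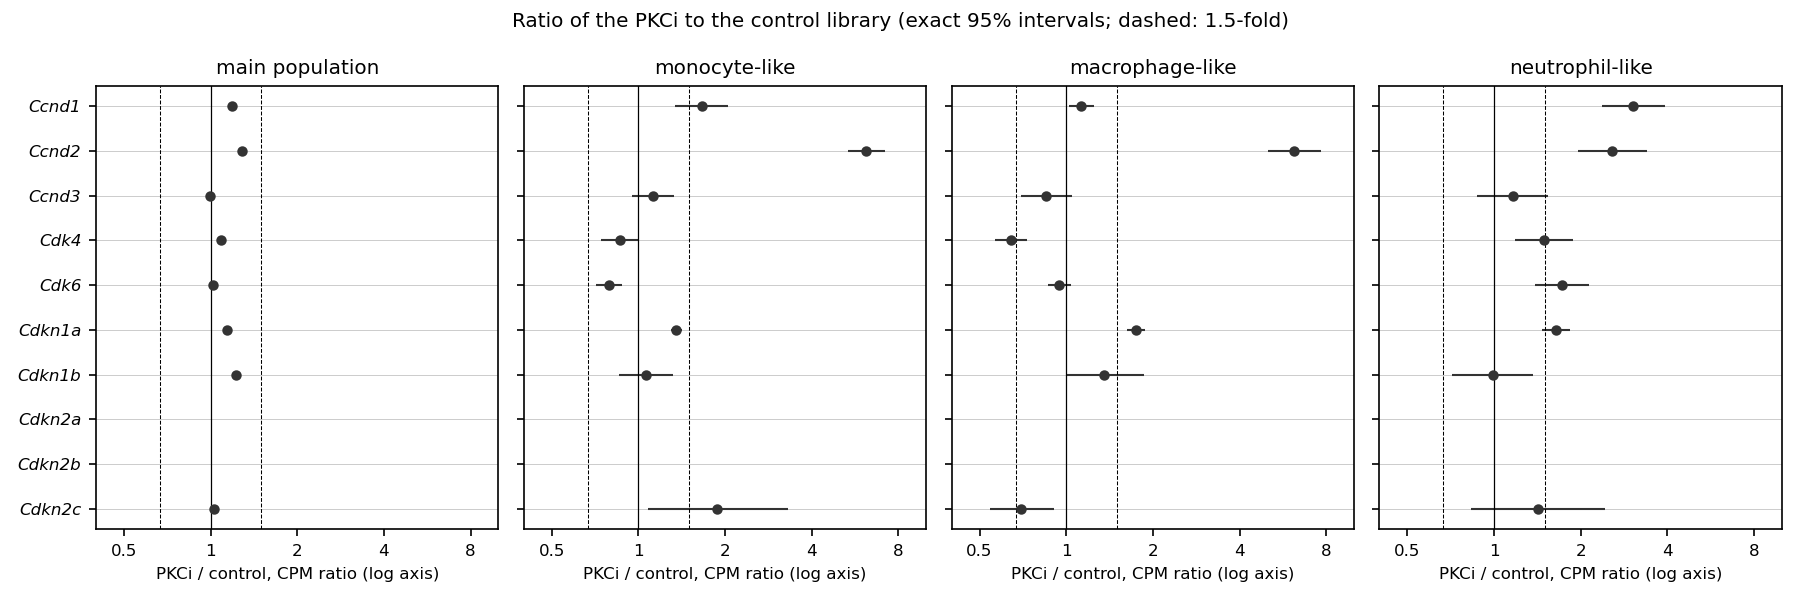
PKCi over control ratio of the 8 measured members in the 4 classes large enough in both libraries (100 cells or more). The axis is on a log scale, bars are exact conditional 95% intervals that cover counting error only, and lines mark 1.5 times higher and lower; Ccnd2 in monocyte-like (6.19) and macrophage-like cells (6.18) lies farthest out.

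Neutrophil-like cells had many differences, and their Krt8 was the highest outside the main population among the named classes. There 4 of 8 members were called higher (Ccnd1, Ccnd2, Cdk6 and Cdkn1a) and 0 lower, against 35.9% of 6014 genes called, of which 27.8% were higher and 8.11% lower. Ccnd1 was 61.2 and 187 CPM (3.05 [2.37, 3.93]), Ccnd2 54.6 and 140 (2.57 [1.96, 3.40]), Cdk6 108 and 186 (1.72 [1.39, 2.13]) and Cdkn1a 406 and 667 (1.64 [1.47, 1.83]). Krt8 went from 121 to 282 CPM in the same cells, and summed neutrophil markers from 99631 to 25593 CPM, with all 9 at or above 50 CPM in both. Summed mast or basophil markers went from 14.5 to 885 CPM, with 0 and 2 of 5 at or above 50. After subtraction in proportion to Krt8, Ccnd1 was 0 and 75.8 CPM and Ccnd2 1.54 and 34.8, a ratio of 22.6 for Ccnd2. That control level of 1.54 CPM lies under 1.82 CPM, the level of 3 counts in this class, so the size of the ratio is not measured. The 10 highest cells gave 77.2% and 85.4% of the Ccnd1 UMIs and 76.7% and 78.4% of the Ccnd2 UMIs, but 17.9% and 18.7% of the Cdkn1a UMIs. With each cell weighted equally, the Ccnd1 ratio was 1.12 and the Cdkn1a ratio 2.26. Naming from markers alone gave a Ccnd2 ratio of 1.33. The part of free RNA, doublets and other cells in these ratios was not tested.

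Classes with under 100 cells in a library were not called, and their values are given without one. Ccnd3 in T-like cells had 57 and 133 UMIs, levels of 126 and 208 CPM and a ratio of 1.65 [1.20, 2.29]. Ccnd2 was lower in PKCi in the lymphoid classes, at 384 and 286 CPM in T-like cells (0.747 [0.603, 0.925]) and 250 and 193 in NK-like cells (0.773 [0.593, 1.01]). Cdk4 in dendritic-like cells went from 8 to 71 UMIs, or 31.0 to 107 CPM. Cdkn1a in fibroblast-like cells, of which there were 24 and 26, went from 9 to 52 UMIs (6.04 [2.95, 13.9]).

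Within the main population the inhibitors varied with the genes of the cell cycle more than the cyclins did. Cells were thinned to 5000 UMIs and placed by 22 S-phase and 22 G2/M genes, which hold no member: at least 3 G2/M genes, at least 3 S genes with fewer G2/M genes, or fewer than 3 of both. These are ranges of a count and not cell types, and 704 control and 697 PKCi cells lay within 1 gene of the G2/M limit. G2/M cells made up 68.5% of control and 68.7% of PKCi cells, S cells 14.8% and 14.1%, and cells under both limits 16.7% and 17.2%, with 45 and 199 shallower cells left out. Cdkn1a was 16.6, 30.5 and 57.8 CPM in control cells under both limits, in S and in G2/M, and 22.2, 35.1 and 65.3 in PKCi cells. Its G2/M level was 3.49 times [3.15, 3.88] that of cells under both limits in control and 2.95 times [2.70, 3.23] in PKCi. Cdkn2c ran the other way, at 83.6, 37.3 and 31.9 CPM in control and 80.8, 39.0 and 33.6 in PKCi, which gave ratios of 0.382 [0.362, 0.403] and 0.417 [0.395, 0.439]. Cdkn1b also ran down, from 43.8 to 27.8 CPM in control and from 53.5 to 34.0 in PKCi, a ratio of 0.635 in each. Both libraries thus gave the same order for these 3 inhibitors.

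The cyclins and kinases spread less over the ranges. Ccnd1 was 193, 236 and 226 CPM in control and 267, 275 and 264 in PKCi, so that its G2/M level was 1.18 and 0.991 times that of cells under both limits. Ccnd2 was highest in S, at 207 CPM in control and 251 in PKCi, and its G2/M ratio was 1.02 and 1.00. Cdk4 was 195, 238 and 258 CPM in control and 200, 247 and 283 in PKCi, ratios of 1.32 and 1.41. The median depth rose with the range as well, from 26324.5 to 32650.5 and 43551 UMIs in control, and whether depth takes part in these ratios was not tested beyond thinning. Among clusters of the main population, the one with the most Cdkn2c (133 and 96.4 CPM, against a control median of 27.01 over the 9) had the least Cdkn1a (16.5 and 17.3), the most Cdkn1b (57.4 and 64.2) and the least Cdk4 (175 and 198).

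**Figure D5:**
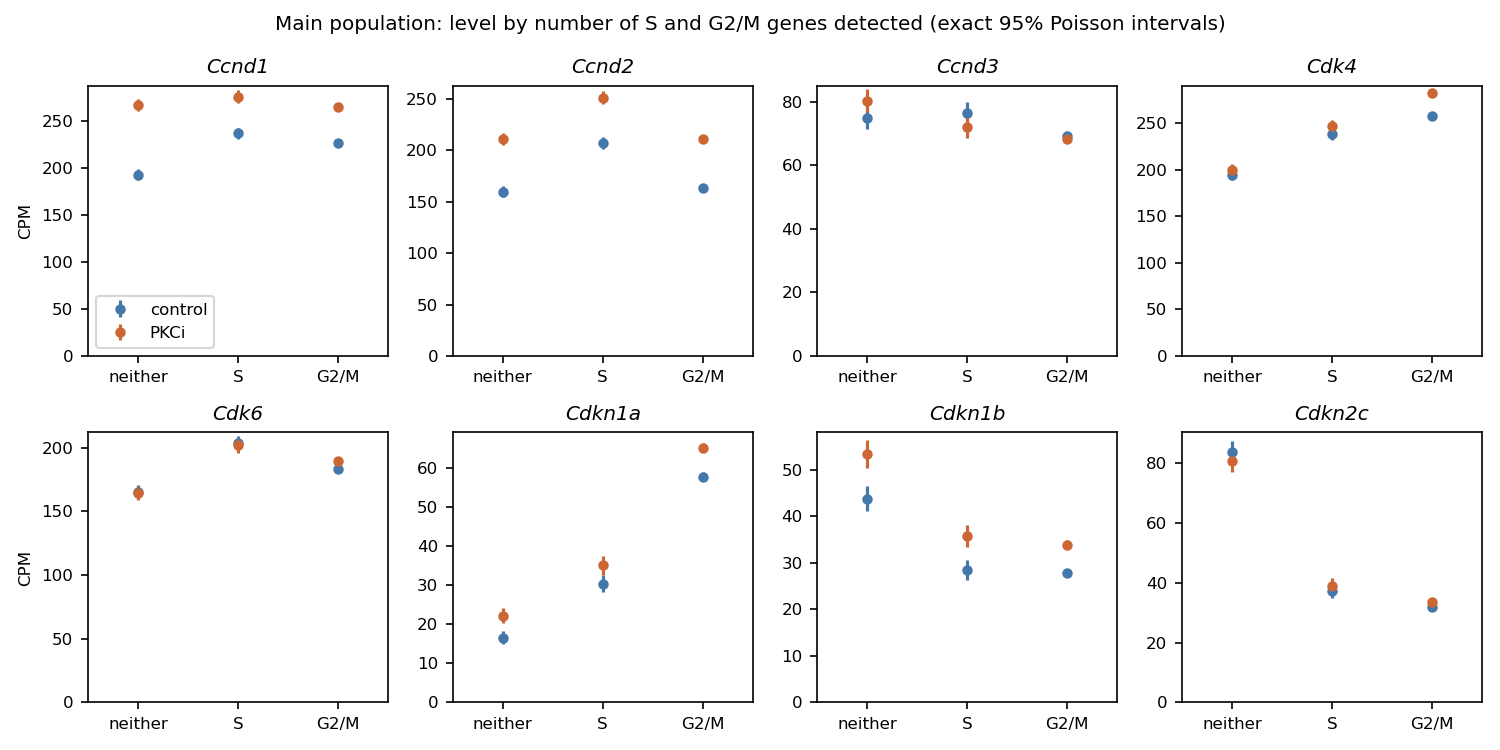
Members in the main population by range of cell cycle genes. The x axis gives cells under both limits (neither), S and G2/M, the y axis is CPM from 0 on a linear scale, points are the control and PKCi libraries and bars are exact Poisson 95% intervals; Cdkn1a goes up from 16.6 to 57.8 CPM in control cells and Cdkn2c goes down from 83.6 to 31.9.

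The Ccnd2 difference in macrophage-like cells was present in each range, with ratios of 5.97 under both limits, 8.85 in S and 4.74 in G2/M, and the monocyte-like ratios were 6.92, 6.24 and 5.13. The lower Cdk4 of PKCi macrophage-like cells was also seen within the ranges, at 0.731, 0.664 and 0.688, as was the higher Cdkn1a, at 1.41, 3.28 and 1.77. G2/M cells were 32.9% of control and 21.4% of PKCi macrophage-like cells, and 7.4% and 10.4% of monocyte-like cells.

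Pathway partners, from 11 lists drawn up with earlier results of these data known, are given by how many of their measured genes met the same 1.5 times rule. In the main population, where 3.38% of all genes were higher and 4.89% lower, 5 of 19 p53 genes were higher and 0 lower, with Gdf15, a stress cytokine, at 40.8 and 90.7 CPM (2.22) and Eda2r, a death receptor, at 1.23 and 2.66 (2.16), and the list's median log2 ratio was 0.07. Of the growth-signal genes 1 of 16 was called there, Klf4, at 3.92 and 7.81 CPM, and none was called in the 9 other lists, the 22 G2/M genes included. In macrophage-like cells, where 9.86% of all genes were higher and 6.62% lower, 19 of 22 G2/M genes were lower and 0 higher (median log2 ratio -0.95 against 0.01 over all genes), led by Hmmr (0.344), Nusap1 (0.422) and Kif20b (0.442). Also lower were 5 of 15 E2F targets, among them Tk1 (0.433), 5 of 22 S-phase genes and 3 of 11 CDK and cyclin partners, among them Cdk1, the mitotic kinase, at 101 and 52.2 CPM (0.515) and Ccna2 (0.582). Cdkn2d (0.446) and Cdkn3 (0.642) were lower, while Ccne1, the cyclin that follows cyclin D, was at 14.2 and 10.8 CPM. Mki67, a marker of cycling cells, was at 162 and 73.3 CPM.

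Of the p53 list, 6 of 18 genes were higher in macrophage-like cells and 1 lower, and Mdm2 had a ratio of 0.986 [0.887, 1.10]. Gadd45a, a growth arrest gene, was at 7.73 and 26.0 CPM (3.37), Sesn2 had a ratio of 2.10 and Btg2, an antiproliferative gene, was at 222 and 432 CPM (1.95), while Phlda3 was lower (0.258). Of the growth-signal list, 4 of 15 genes were higher: Klf4 at 507 and 970 CPM (1.91), Ets2 (1.62), Tcf7l2 (1.56) and Myc (1.52). The list was not sorted by effect on growth, so its count gives no direction of growth signalling. In monocyte-like cells, where 11.7% of all genes were higher and 6.53% lower, the phase genes ran the other way. There 11 of 16 G2/M genes, 6 of 17 S-phase genes and 6 of 14 E2F targets were higher and 0 lower. Mki67 was at 10.5 and 26.1 CPM (2.49), from 56 and 102 UMIs. Its ratio in the finer clusters was 0.633 [0.157, 1.91] in the first, with the most Ly6c2. It was 2.40 [0.929, 5.57] in the second and 2.62 [1.48, 4.99] in the third. The p53 list was divided in monocyte-like cells, with 2 of 15 higher (Btg2 at 296 and 542 CPM, and Ccng1). In that list 4 were lower, among them Gadd45a at 72.6 and 31.4 CPM and Mdm2 at 178 and 116 (0.654 [0.584, 0.732]). Of the growth-signal list in these cells, 1 of 15 was higher (Klf4, 278 and 725 CPM, 2.61) and 1 lower (Mxd1, 0.484). In neutrophil-like cells 19 of 22 G2/M genes, 14 of 18 S-phase genes and 9 of 13 E2F targets were higher, against 27.8% of all genes, beside the Krt8 difference given above. A common shift of the median gene of 0.12 in monocyte-like and 0.22 in neutrophil-like cells (log2, genes with many UMIs) lies under all of these ratios.

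The genes whose levels were most like each member's were found over 18 points, the 9 classes in each library, by Pearson's r of log2(CPM + 10) among 6690 genes. The points share libraries and depth, so r is a description. For Ccnd1 they were Fnbp1l (0.88), Phc2 (0.87) and Nrp2 (0.84), for Ccnd2 Hivep1 (0.79), Aebp2 (0.78) and Kdm3b (0.76), and for Ccnd3 Sept6 (0.91), Rabgap1l (0.91) and Mysm1 (0.90). Cdk4 was most like Poldip2 (0.94), Dgcr6 (0.94) and Ipo5 (0.93), and Cdk6 most like Ttc39b (0.88), Rngtt (0.86) and Lactb2 (0.85). For Cdkn1a they were Fem1c (0.92), Lyn (0.92) and Il10ra (0.90), and for Cdkn1b Wipf1 (0.85), Relb (0.82) and Atxn7l1 (0.82). Ccnd2 had the lowest leading value of these members. Between members, r was 0.71 for Ccnd3 and Cdkn1b, 0.62 for Ccnd2 and Ccnd3 and -0.51 for Cdk4 and Cdkn1a.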

How the data were processed

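Subcutaneous CMT167R tumours from 1 control and 1 PKCi library were measured by 10x 3′ single-cell sequencing (chemistry version 3.1, NovaSeq 6000, per the labels' protocols). The deposited values are raw UMI counts for each barcode and gene, written by Cell Ranger 7.0.0 per the file headers, and Cell Ranger, Seurat and GRCm38 are named in the submitters' processing notes. The settings for introns and strand are not given in the sources used here. The 6688 and 7457 barcodes held 222641855 and 229219749 UMIs.

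Barcodes with fewer than 500 genes (247 and 200) or over 20% mitochondrial UMIs (61 and 47 more) were left out, and Scrublet in scanpy 1.11.5, with 6% doublets expected, removed 111 and 132 (1.74% and 1.83%). Cells were clustered on 2000 variable genes, 30 components and 15 neighbours by the Leiden method at resolution 1.0 (leidenalg 0.10.2), with mixed clusters split at 0.5. A class was named from marker lists when at least 3 markers reached 50 CPM, the marker score was at least 0.35 and Krt8 was under 250 CPM. Unnamed clusters held 215 and 278 cells (3.43% and 3.93%). UMIs were then summed per class and library in Python 3.11.15 with numpy 2.4.6 and scipy 1.17.1, with exact Poisson intervals for levels, exact conditional binomial intervals for ratios and Clopper-Pearson intervals for shares. Log2 ratios had 0.5 counts added. Counting and calling were tested on simulated data.

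The members and the gene lists were chosen with earlier results of these data known, the higher Ccnd2 of PKCi macrophage-like cells among them. All 10 members are named, then up to 3 genes called in each direction per list and class, Cdkn1c, Cdkn2d, Rb1, Mdm2, Ccne1, Myc and Mki67, and the 3 genes most like each member that reached 50 CPM in a class. Skp1 was not found under that symbol. Positions come from GENCODE vM21, in which 32158 of 32285 genes were found. Alternatives changed the clustering, naming, filters, doublets, scaling, minimum UMIs, cell weighting, subtraction by Krt8, thinning and phase limits.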

Additional observations from a re-analysis of the deposited data

Results flagged for a closer look

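Among the 4 classes with enough cells to compare, 3 members had ratios of PKCi to control on opposite sides of 1, with intervals that did not reach 1. Each class has 1 library per treatment, so these differences between classes were not tested. Cdk4 was 1.49 times as high in PKCi neutrophil-like cells and 0.645 times as high in PKCi macrophage-like cells. With each cell weighted equally the neutrophil-like Cdk4 ratio was 0.699, and after subtraction in proportion to Krt8 its levels were 33.4 and 0 CPM. Of 10 recomputed values of this ratio, 6 stayed above 1. The 10 highest cells gave 66.1% and 78.6% of the neutrophil-like Cdk4 UMIs. Cdk6 was 1.72 times as high in neutrophil-like cells and 0.791 times as high in monocyte-like cells. Cdkn2c was 1.88 times as high in monocyte-like cells, from 24 and 33 UMIs, and 0.699 times as high in macrophage-like cells, from 107 and 152 UMIs. The macrophage-like Cdkn2c ratio ran from 0.661 to 1.30 over 11 recomputed values, of which 8 stayed below 1. It was 0.902 [0.674, 1.21] within G2/M cells of that class. All 9 recomputed monocyte-like values stayed above 1. Outside those 4 classes, Ccnd2 was 0.747 times as high in PKCi T-like cells, against 6.19 times in monocyte-like cells.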

How the results depend on the processing

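No paired analysis was possible because each treatment had 1 library. Of 321 ratios of members recomputed, 293 kept their direction. The Ccnd2 ratio stayed above 1 throughout, at 1.28 to 1.30 in the main population, 1.63 to 8.16 in monocyte-like, 3.15 to 10.4 in macrophage-like and 1.33 to 22.6 in neutrophil-like cells. The value of 22.6 rests on a control level under that of 3 counts. For monocyte-like cells the Ccnd2 ratio was 1.63 at resolution 2.0, 2.64 with cells named from markers alone, 8.16 after subtraction in proportion to Krt8 and 3.04 at the control mix of finer clusters, which was added after seeing the data. For macrophage-like cells it was 3.15 from markers alone and 10.4 after subtraction. Naming from markers alone reversed Ccnd1 in monocyte-like cells (0.887) and Cdk4 in macrophage-like cells (1.00). Resolution 0.5 gave no monocyte-like class. With no minimum of UMIs, members called lower numbered 2 for monocyte-like cells and 1 for the main population. At resolution 2.0 and from markers alone, 1 was called higher and 1 lower in monocyte-like cells. In macrophage-like cells 0 were lower with cells weighted equally, without doublet removal, at resolution 0.5, from markers alone or joined with monocyte-like cells, and 2 with a minimum of 20 UMIs, with none or after subtraction. In neutrophil-like cells 2 were higher with the median ratio set to 1, with at least 1000 genes and at most 10% mitochondrial UMIs, at resolution 2.0 or from markers alone, and 1 was lower at resolution 2.0 or after subtraction. Cells with a Ccnd2 UMI were 6.52% of control and 35.6% of PKCi monocyte-like cells at 3000 UMIs and 16.8% of control unthinned. The macrophage-like shares were 10.0% and 30.9% at 3000 and 31.9% and 64.4% unthinned. The Cdkn2c ratio of G2/M cells to cells under both limits was 0.483 in control and 0.518 in PKCi with at least 5 genes, and 0.309 and 0.335 at 10000 UMIs. The cause of these changes was not tested. Counting depth limits Cdkn2a, Cdkn2b and the classes under 100 cells.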

Other observations

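D-type cyclins were also counted together in each cell after thinning to 5000 UMIs. In the main population 31.6% of control and 40.5% of PKCi cells held both Ccnd1 and Ccnd2 UMIs, against 30.7% and 39.5% if the genes were counted independently. Cells with a UMI of none of the 3 cyclins were 14.8% and 10.4% of the main population, 63.4% and 31.5% of monocyte-like cells and 43.9% and 25.3% of macrophage-like cells.

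Cdkn1c, the third CIP/KIP gene (p57), had 0 UMIs in the main population of both libraries, under a limit of 0.00742 CPM over both, and was at 41.5 and 17.4 CPM in fibroblast-like cells, from 20 and 8 UMIs. The other named classes together held 68 UMIs, and the 95% interval of their ratio to the main population has a lower limit of 268.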
